A study of Mus musculus with 12 samples.

Results

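Imprinted genes, which are transcribed mainly from the copy inherited from 1 parent, were followed in mouse epiblast-like cells (EpiLCs) with and without the histone demethylase KDM5C. A list of 53 imprinted genes was matched by symbol to the deposited tables, and 52 of them were found among the 22911 genes of each table. Mirg, a maternal RNA of the Dlk1-Dio3 cluster, is not among the listed symbols. The 53 genes fall into 21 imprinted clusters or single loci, with 28 genes expressed from the paternal and 25 from the maternal copy in the tissues where they are imprinted. The study derived embryonic stem cells (ESCs) and made RNA-Seq libraries from EpiLCs of each sex with and without KDM5C, in which it looked at reads over the deleted exons of Kdm5c. Libraries were made for 4 groups of 3: fWT (female, Kdm5c fl/fl), fKO (female, Kdm5c Δ/Δ), mWT (male, Kdm5c fl Y) and mKO (male, Kdm5c Δ Y). All groups, controls included, come from a floxed strain, in which loxP sites flank exons 11 and 12 of Kdm5c (Smcx in the labels), and the Δ allele lacks those exons after Cre recombination. The labels name the strain C57BL/6J, while the methods of the study describe a mixed background. Each group stands for 3 independent ESC lines, which were derived on mouse feeder cells and differentiated for 48 h in FGF2 and Activin A.

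At imprinted clusters, a differentially methylated region acquired in the egg or the sperm acts as an imprinting control region. It sets whether an insulator, a promoter or a long non-coding RNA is active on that copy, so that neighbouring genes are often expressed from opposite parental copies. Many imprinted genes regulate growth of the fetus and placenta, and some are imprinted only in placenta or brain, so that in epiblast cells both of their copies may be read. The counts used here carry no allele information. They give the summed output of both copies, and in bulk RNA a gene at a lower level per cell cannot be told apart from fewer cells that express it.

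Each deposited value is the mean of 3 libraries in normalized counts, which are reads on a gene divided by a size factor of the library. Since a mean of 3 whole numbers divided by 3 fixed factors can be solved, the whole reads behind it were recovered for each library wherever the group mean did not exceed 10000. Within a group, the libraries are called A, B and C in the order of falling size factor, and which ESC line each one comes from is not known. Their depth ranged from 5516216 to 11092731 recovered reads. Kdm5c itself counted 2336, 2429 and 2315 in fWT, 1406, 1447 and 1505 in fKO, 2195, 2110.1 and 2371 in mWT and 1897, 1943 and 1976 in mKO. The log2 fold change of Kdm5c was −0.70 (standard error 0.0536, limma adjusted p = 4.7e-09) in females and −0.20 (standard error 0.105, limma adjusted p = 0.274) in males, but reads over the whole gene do not check the loss of exons 11 and 12. The 6 epiblast-like markers, among them Pou5f1, Otx2, Fgf5 and Dnmt3b, were read in every library, and their changes are given with the other markers. Library B of mWT and library A of mKO stood apart: chi-square per gene was 16.7 to 29.9 in pairs that include one of them and 1.92 to 4.38 in the other pairs of libraries within a group. Libraries A and C of mWT held 8133 and 6277 reads on a set of 4982 genes, against 736 in mWT B. The set was chosen as nearly silent in the libraries outside mWT, so their low totals of 324 to 682 follow from that choice. Male results are therefore given below with the libraries that decide them.

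Promoter sequences show what kind of start sites these genes have. RefSeq windows of 300 bases (250 before and 50 after a start site, build GRCm38.p6) were matched to 42 of the 53 genes. The hexamer TGCCGC, which the zinc finger protein ZFP57 binds when it is methylated and which was searched on both strands (GCGGCA on the other), occurred in the windows of 13 of the 42 genes (31.0%) and of 13.1% of all 27025 genes with a window. Per window the shares were 21.5% of 65 and 11.6% of 32851, and the median window of the imprinted genes held 15 CpG dinucleotides against 7 for all windows. A match is a description of the sequence, and which start site was used was not measured. The 250 bases before a start site are printed for 5 genes on which the results turn, 5′ to 3′ on the strand of the gene, with the hexamer in capitals. Meg3 and Mest fell in both sexes, whereas Igf2, Dlk1 and Grb10 changed differently in females and males.
Meg3, chr12:109540746-109540995 on the + strand: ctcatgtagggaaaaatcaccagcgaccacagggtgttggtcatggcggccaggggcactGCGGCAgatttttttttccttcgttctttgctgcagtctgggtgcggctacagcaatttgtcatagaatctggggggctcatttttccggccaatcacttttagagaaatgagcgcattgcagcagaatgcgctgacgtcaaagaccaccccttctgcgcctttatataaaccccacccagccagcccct
Mest, chr6:30737800-30738049 on the + strand: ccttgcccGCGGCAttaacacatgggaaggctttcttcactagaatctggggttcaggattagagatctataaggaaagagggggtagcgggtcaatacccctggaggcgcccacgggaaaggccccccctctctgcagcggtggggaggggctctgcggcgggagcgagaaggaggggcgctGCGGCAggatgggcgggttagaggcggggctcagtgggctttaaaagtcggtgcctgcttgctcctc
Igf2, chr7:142658805-142659054 on the − strand: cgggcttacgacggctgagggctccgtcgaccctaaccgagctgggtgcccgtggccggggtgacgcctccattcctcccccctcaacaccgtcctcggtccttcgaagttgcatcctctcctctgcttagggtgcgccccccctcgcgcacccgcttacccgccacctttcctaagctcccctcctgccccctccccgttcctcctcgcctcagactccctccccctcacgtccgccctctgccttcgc
Dlk1, chr12:109452573-109452822 on the + strand: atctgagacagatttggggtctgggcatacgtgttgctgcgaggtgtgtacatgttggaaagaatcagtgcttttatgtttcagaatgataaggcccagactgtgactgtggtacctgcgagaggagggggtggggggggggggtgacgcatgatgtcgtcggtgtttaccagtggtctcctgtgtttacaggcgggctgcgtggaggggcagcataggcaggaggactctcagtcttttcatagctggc
Grb10, chr11:12037421-12037670 on the − strand: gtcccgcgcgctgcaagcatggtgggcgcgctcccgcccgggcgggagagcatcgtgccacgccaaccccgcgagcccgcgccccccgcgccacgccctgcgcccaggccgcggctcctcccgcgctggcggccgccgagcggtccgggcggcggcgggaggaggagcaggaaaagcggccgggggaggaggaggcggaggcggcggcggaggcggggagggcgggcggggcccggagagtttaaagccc
For each gene the window with the most CpG dinucleotides is shown. The Mest stretch holds 2 copies of the hexamer and the Meg3 stretch holds 1. The Igf2, Dlk1 and Grb10 stretches hold none in these letters, although the full window of Grb10 has 1 that is not wholly within the printed stretch. Igf2 has 4 windows, and 1 that is not printed, at another start site, holds the hexamer. This Grb10 window holds 45 CpG dinucleotides and is 80% G or C, the Igf2 window holds 24 CpG, and that of Dlk1 holds 9.

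In females, most imprinted genes differed between fKO and fWT, and more of them fell than rose. Of the 49 members that could be tested, 34 passed the threshold (adjusted p under 0.05 in limma), with 10 higher and 24 lower in fKO. That share of 69.4% stands beside 50% of all 19583 genes tested, of which 25.4% were higher and 24.6% lower. In genes with a mean of at least 10 normalized counts, which most members have, 65.8% of all genes were called. The median log2 fold change of the members was −0.28, against 0.00 for all genes. In males, 15 of 50 members passed, 9 higher and 6 lower in mKO, against 7.78% of all 21900 genes tested (4.19% higher and 3.58% lower) and 12.3% of genes with a mean of at least 10. Their median was 0.04, against −0.16 for all genes. Libraries of fKO and fWT did not overlap in 36 members (54.8% of all genes), and those of mKO and mWT in 22 members (26.5% of all genes). For 3 libraries against 3, the exact permutation test cannot give a two-sided p below 0.1. The p-values measure the spread among these libraries, and 1 library can carry much of it. Leaving out 1 male library at a time gave 3 to 23 calls among the members, 4 without mWT A, 3 without mWT C, 5 without mKO B, 5 without mKO C, 17 without mWT B and 23 without mKO A. The share of all genes called also moves between such runs and is not set beside these counts. The counts show only how far the calls rest on single libraries. Without both mWT A and mWT C, limma called 0 members and 0 genes, with 11 members and 2799 genes at an unadjusted p under 0.05. Without the libraries that stood apart, mWT B and mKO A, 28 members were called, 14 in each direction, beside 43% of all genes.

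**Figure D1:**
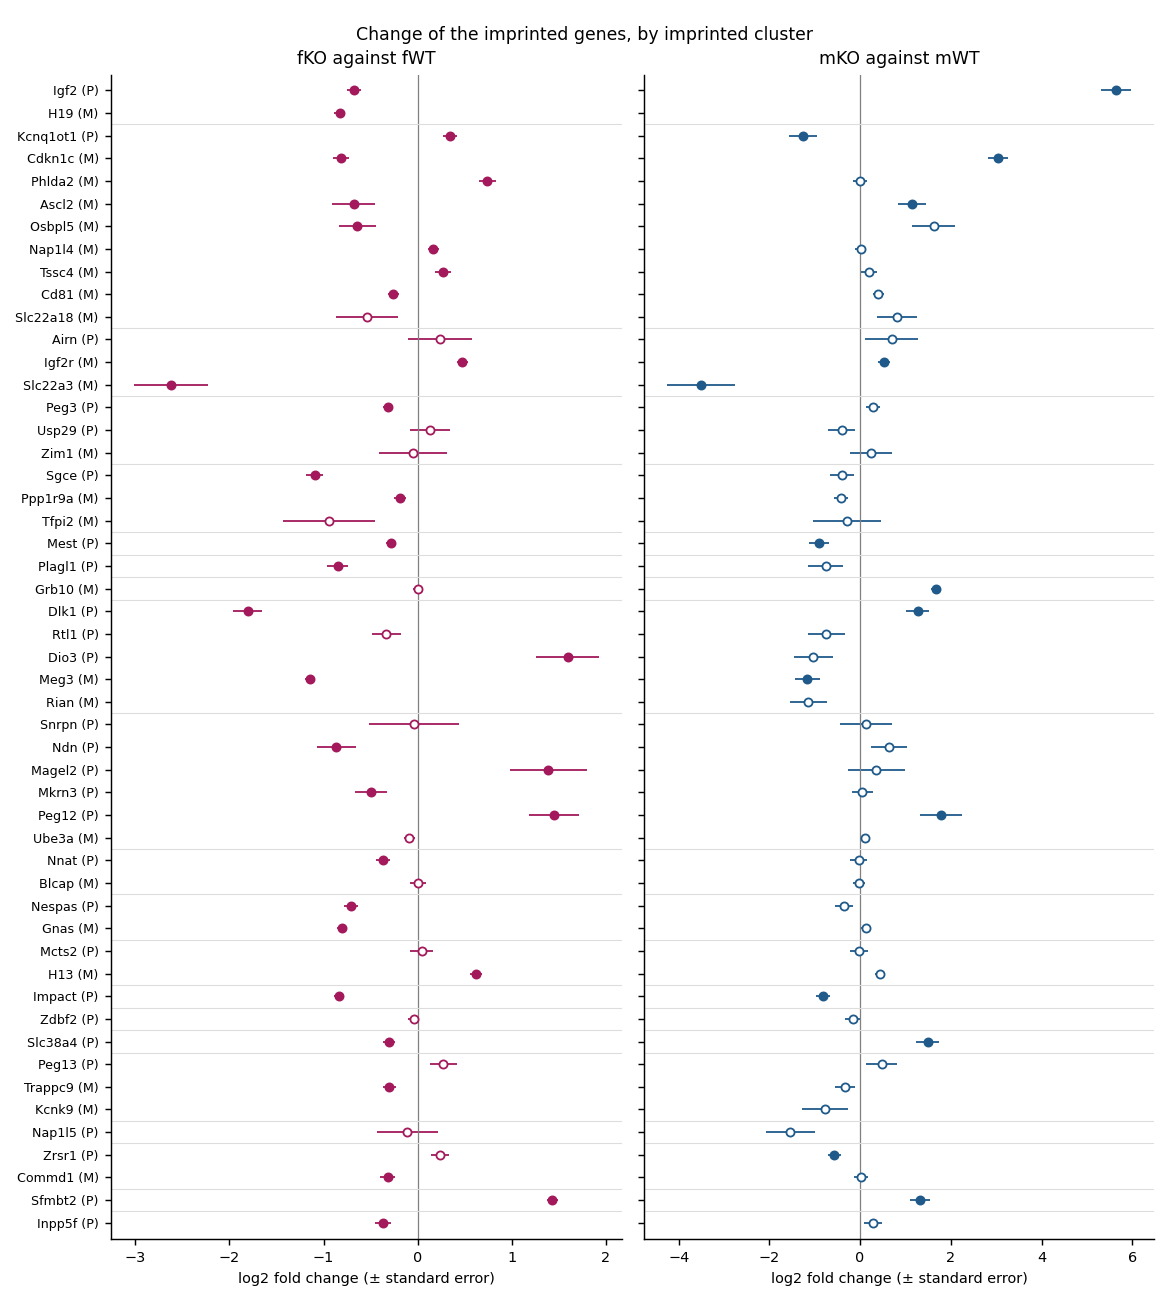
Log2 fold changes of the imprinted genes in females (left, fKO against fWT) and males (right, mKO against mWT), with the standard error as bars, grouped by imprinted cluster between grey lines. P and M mark paternal and maternal expression, and filled points passed an adjusted p under 0.05 in limma. Igf2 and Cdkn1c have the highest male values, 5.65 and 3.04, and negative female values, and the 2 panels have different axes.

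The sexes differed in direction for several genes. Of the 48 members tested in both sexes, 3 were higher in both knockouts (Igf2r, Peg12 and Sfmbt2) and 4 were lower in both (Slc22a3, Mest, Meg3 and Impact). Another 5 were lower in fKO and higher in mKO (Igf2, Cdkn1c, Ascl2, Dlk1 and Slc38a4), and Kcnq1ot1 was higher in fKO and lower in mKO. Grb10 rose and Zrsr1 fell in mKO with no female call, 20 were called in females alone, which by itself shows no difference between the sexes, and 13 were called in neither sex. The shares of all genes in these joint classes were not counted, so the counts describe the members alone. The test of the difference itself, the interaction of sex and genotype over all 12 libraries, passed for 16 of 49 members (12 with the higher change in males, 4 with the higher change in females), against 21.2% of 22014 genes (10.6% and 10.7%). In a fit of genes with a mean of at least 10, it passed for 17 of 44 members, beside 33.8% of all these genes. By parental copy, 5 of 27 paternal members rose and 13 fell in fKO, and 5 of 22 maternal members rose and 11 fell. Of all genes, 25.4% rose and 24.6% fell in fKO. In mKO, 5 of 27 paternal members rose and 4 fell, and 4 of 23 maternal members rose and 2 fell, beside 4.19% and 3.58% of all genes. Both parental classes held genes that moved in each direction in each sex.

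Of the members tested in males, Igf2 had the largest log2 fold change, whereas in females Igf2 and its neighbour H19 changed less than Dlk1, Slc22a3, Dio3 or Sfmbt2. Igf2 encodes an insulin-like growth factor that drives fetal growth and is expressed from the paternal copy, and H19 is a maternal long non-coding RNA that shares its enhancers and its imprinting control region. On mm9, Igf2 lies at chr7:149836673-149852721 and H19 at chr7:149761434-149764048, both on the − strand. Normalized counts of Igf2 were 365, 378 and 392 in fWT, 245, 231 and 236 in fKO, 145, 89.9 and 147 in mWT and 3440.2, 8725 and 8153 in mKO. Every mKO library lay above every other library, and every fKO library lay below every fWT library. The log2 fold change was −0.67 (standard error 0.0746, limma adjusted p = 5.61e-07) in females and 5.65 (standard error 0.332, limma adjusted p = 9.47e-05) in males, and the change in males minus that in females was 6.32 (standard error 0.388, limma adjusted p = 2.44e-07). H19 counted 4122, 4278 and 4165 in fWT, 2203, 2399 and 2474 in fKO and 2610.1, 2422 and 2446 in mWT. For mKO, only the authors' mean of 25827 is known, 10.4 times their mWT mean of 2493, with no error and no test. In females H19 fell together with Igf2, with a log2 fold change of −0.83 (standard error 0.0558, limma adjusted p = 8.51e-10) and no overlap of libraries. Thus a paternal and a maternal gene of the same cluster were both at lower levels in fKO, and both group means were at higher levels in mKO. Igf2 passed the threshold in males without any 1 of the 6 libraries (limma adjusted p of at most 0.00657), and was not past it without mWT A and C together (adjusted p = 0.212), where the log2 fold change was 6.10.

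**Figure D2:**
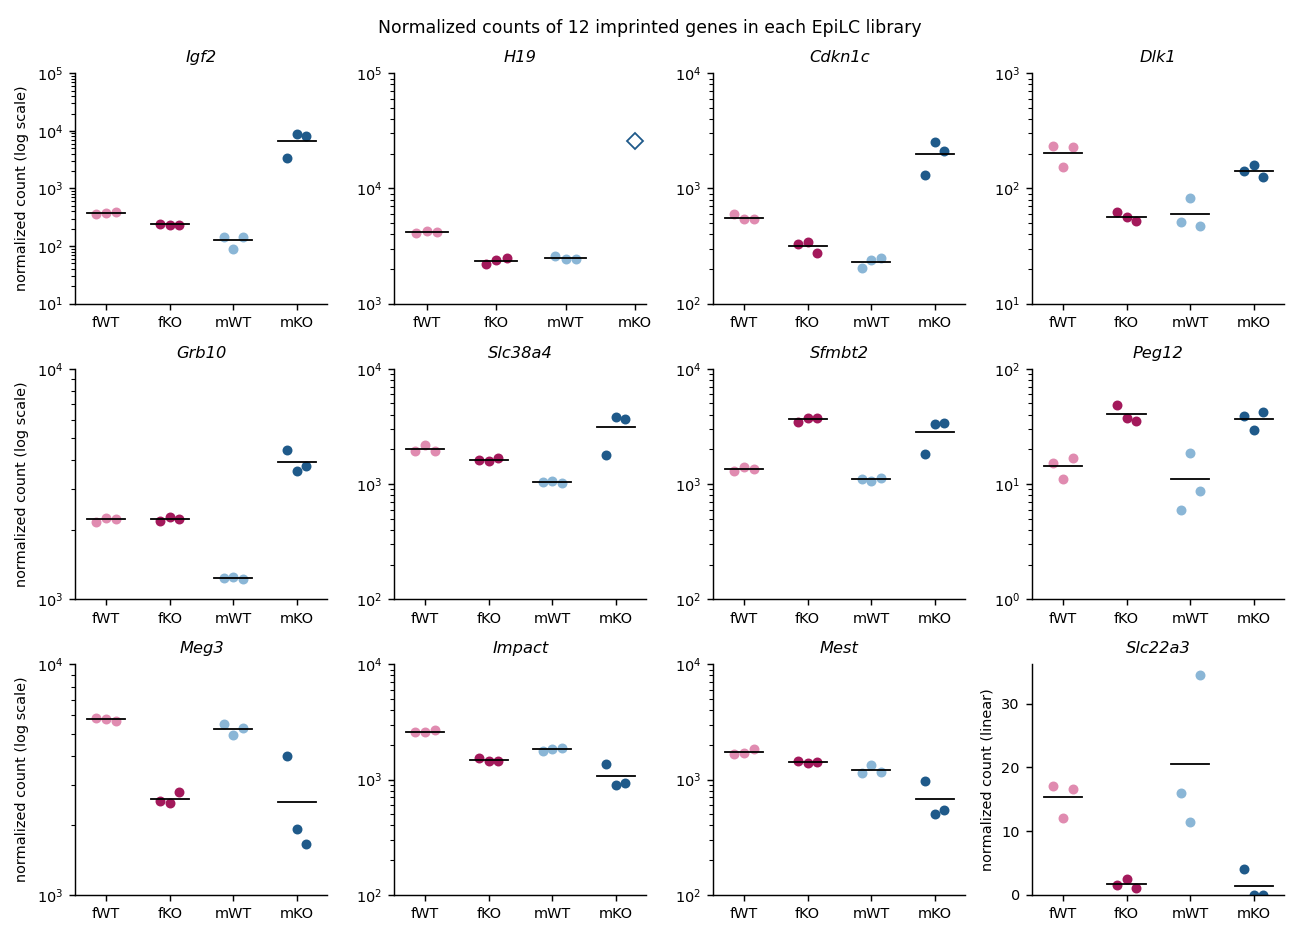
Normalized counts of 12 imprinted genes in each library of fWT, fKO, mWT and mKO (log axes, with a linear axis for Slc22a3). Points are libraries, black lines the mean of 3 libraries, and the open diamond for H19 in mKO is the authors' mean. Igf2 lies between 3440 and 8725 in mKO and between 89.9 and 147 in mWT.

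Kcnq1ot1 and Cdkn1c of the neighbouring Kcnq1 cluster changed in opposite directions in the sexes. Its paternal long non-coding RNA, Kcnq1ot1, silences the maternal genes of the domain in cis where they are imprinted. Kcnq1ot1 counted 4376, 3699 and 4037 in fWT and 4519, 5369 and 5451 in fKO, a log2 fold change of 0.34 (standard error 0.073, limma adjusted p = 0.000757). Counts of 11399.6, 5431 and 11520.3 in mWT and 5389.6, 3117 and 3140.3 in mKO gave −1.25 (standard error 0.305, limma adjusted p = 0.0379). The male difference rests on mWT A and C, the highest of all libraries, whereas mWT B lies beside mKO A, and the call was lost without mWT A, mWT C, mKO B or mKO C. Without mWT A and C together the log2 fold change of Kcnq1ot1 was −0.53 (limma adjusted p = 0.611). Cdkn1c (chr7:150644255-150646955, − strand), which encodes the cyclin-dependent kinase inhibitor p57, counted 595, 539 and 539 in fWT and 331, 345 and 277 in fKO. In males it counted 205, 239.8 and 250.1 in mWT and 1300.1, 2508 and 2132 in mKO, with no overlap in either sex. Its log2 fold change was −0.82 (standard error 0.0829, limma adjusted p = 1.88e-07) in females and 3.04 (standard error 0.219, limma adjusted p = 0.000138) in males, a difference of 3.86 (standard error 0.262, limma adjusted p = 4.83e-07), and the male call held without any 1 library.

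The other maternal genes of that cluster were not alike. Ascl2, a basic helix-loop-helix factor needed for trophoblast, counted 52.3, 38.4 and 36.7 in fWT, 25.9, 28.6 and 23.2 in fKO, 34.9, 34.1 and 23 in mWT and 52.8, 73 and 80.7 in mKO. It fell by 0.68 on the log2 scale in females (limma adjusted p = 0.0187), and in males it rose by 1.14 (adjusted p = 0.0498), a call lost without mWT A, mWT C, mKO B or mKO C. Phlda2, which limits placental growth, counted 217, 239 and 270.1 in fWT and 415, 375 and 422 in fKO, and 222, 239 and 221 in mWT and 241, 258 and 188 in mKO. It rose in fKO by 0.74 (standard error 0.0872, limma adjusted p = 1.14e-06) and had a log2 fold change of 0.00 (standard error 0.16, limma adjusted p = 0.998) in males, with overlapping male libraries. Osbpl5, an oxysterol-binding protein gene, counted 57.3, 65.9 and 61.1 in fWT, 47.8, 39.6 and 31.3 in fKO, 35.9, 12.4 and 60.4 in mWT and 95, 91.2 and 98.3 in mKO. It fell in females with −0.64 (standard error 0.194, limma adjusted p = 0.0101), and its male value of 1.62 (standard error 0.477, limma adjusted p = 0.0712) missed the threshold although its libraries did not overlap, with mWT spread from 12.4 to 60.4. Among the remaining genes of the cluster, Nap1l4 and Tssc4 rose and Cd81 fell in fKO, with log2 fold changes of 0.17, 0.27 and −0.26. None of these passed in males, where Cd81 was at 0.40 (standard error 0.116, limma adjusted p = 0.0648). Slc22a18 was at 7.07 to 21.3 in every library and passed in neither sex.

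In the Dlk1-Dio3 cluster of distal chromosome 12, paternal Dlk1 differed between the sexes while maternal Meg3 fell in both. Dlk1 (chr12:110691033-110701546, + strand) encodes a membrane ligand of the Notch family that restrains differentiation, and Meg3 (chr12:110779211-110809936, + strand) a long non-coding RNA. Dlk1 counted 233, 153 and 228 in fWT, 61.9, 56.4 and 52.5 in fKO, 50.8, 82.7 and 47.4 in mWT and 141, 161 and 126 in mKO. All fKO libraries lay below all fWT libraries, and all mKO libraries lay above all mWT libraries. The log2 fold change was −1.80 (standard error 0.152, limma adjusted p = 1.75e-08) in females and 1.27 (standard error 0.253, limma adjusted p = 0.018) in males, and the difference between them was 3.07 (standard error 0.312, limma adjusted p = 1.77e-05). The male call of Dlk1 was lost without mWT A, mWT C, mKO B or mKO C (adjusted p of up to 0.102). Meg3 counted 5859.7, 5785 and 5686 in fWT, 2552, 2492 and 2801 in fKO, 5531, 4932 and 5279 in mWT and 4003, 1937 and 1657 in mKO. The values of Meg3 were lower in all knockout libraries than in any control library, with mKO A the highest of them. Its log2 fold change was −1.15 (standard error 0.0558, limma adjusted p = 1.14e-11) in females and −1.16 (standard error 0.274, limma adjusted p = 0.0345) in males, where the call was lost without any 1 of the libraries other than mKO A (limma adjusted p of up to 0.153).

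The other genes of the Dlk1-Dio3 cluster were less uniform. Rian, a maternal host RNA of small nucleolar RNAs, counted 3581, 3638 and 3771 in fKO, below the authors' fWT mean of 10696, a ratio of means of 0.343 with no test. Male counts of Rian were 5213, 6207 and 5958 in mWT and 6013, 1702 and 1751 in mKO, so that mKO A lay within the range of mWT, and the log2 fold change of −1.14 (standard error 0.403, limma adjusted p = 0.119) missed the threshold. Dio3, the deiodinase that inactivates thyroid hormone, counted 6.04, 5.49 and 10 in fWT, 22.7, 20.2 and 26.3 in fKO, 20.9, 14.5 and 20.1 in mWT and 8.12, 10.1 and 7.24 in mKO. It rose in fKO with 1.59 (standard error 0.331, limma adjusted p = 0.000556), its male value was −1.03 (standard error 0.424, limma adjusted p = 0.172), and the difference between the sexes passed (−2.62, limma adjusted p = 0.00184). Rtl1, a placental gene derived from a retrotransposon, was at 109 to 167 in fWT and 88.9 to 120.4 in fKO, and passed in neither sex.

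Grb10 changed in males and not detectably in females. Grb10 (chr11:11830511-11938686, − strand) encodes an adaptor that dampens insulin and growth factor signalling, and is maternal outside neurons. It counted 2169, 2255 and 2238 in fWT, 2186, 2272 and 2221 in fKO, 1230.3, 1244 and 1219 in mWT and 4443, 3597 and 3783 in mKO. The female groups overlapped, and mKO lay above every other library. The log2 fold change was 0.00 (standard error 0.0516, limma adjusted p = 0.96) in females and 1.67 (standard error 0.116, limma adjusted p = 0.000136) in males, and the difference was 1.67 (standard error 0.117, limma adjusted p = 6.52e-07). The male call held without any 1 library, with an adjusted p of at most 0.00618 from limma. Slc38a4 (chr15:96825254-96886387, − strand), a paternal transporter of neutral amino acids, counted 1926, 2185 and 1928 in fWT, 1617, 1568 and 1692 in fKO, 1043, 1066 and 1018 in mWT and 1782, 3827 and 3673 in mKO. In females Slc38a4 fell with −0.31 (standard error 0.0605, limma adjusted p = 0.000341) and in males it rose with 1.49 (standard error 0.252, limma adjusted p = 0.00956), a call lost without mWT A or mWT C. The lowest mKO value of Slc38a4, like that of Igf2, Cdkn1c and Sfmbt2, was that of library A.

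Markers of other cell types also differed between the groups, and not all in the same direction. Of the 10 fibroblast markers, Col1a1 counted 1270.3 to 1329.6 in fWT, 279 to 285 in fKO, 199.8 to 251 in mWT and 1899.9 to 2675 in mKO, the order of groups that Igf2, Cdkn1c and Dlk1 have in the comparisons within each sex. Col1a2 and Postn had the same order, and Postn was at 3.13 to 7.58 in fKO and 82.8 to 117 in mKO. The summed level of the 10 markers was 2931 to 3021 in fWT, 1772 to 1885 in fKO, 1309 to 1466 in mWT and 5013 to 6034 in mKO, and 5 of 10 passed the threshold in each sex (1 higher and 4 lower in fKO, 4 higher and 1 lower in mKO), beside 50% of all genes in females and 7.78% in males, the shares against which the other marker counts here also stand. Pdgfra, a growth factor receptor gene on the same list, went the other way, at 27.4 to 36.7 in fWT, 531 to 586 in fKO, 250.1 to 301 in mWT and 40.6 to 128 in mKO. Its log2 fold change was 4.10 (standard error 0.12, limma adjusted p = 9.88e-15) in females and −1.81 (standard error 0.352, limma adjusted p = 0.0161) in males. Lum, a defining fibroblast marker, was at 0 to 3.99 in all libraries. The 8 endoderm markers summed to 545 to 603 in fWT and 6686 to 6910 in fKO, and all 8 passed as higher. In males they summed to 2956 to 5391 in mWT and to 6084 and 6206 in mKO B and C, but to 939.8 in mKO A. In mKO 1 of 8 passed, as lower, and the median log2 fold change of the 8 was −0.45 (range −2.14 to 1.32). The 6 trophoblast markers summed to 319 to 453 in mWT and 977 to 2083 in mKO, with 4 of 6 higher, while Cdx2 and Elf5 were at 0 to 15.5 in all libraries. Of 8 naive pluripotency markers, 6 rose and 1 fell in fKO and 4 passed as higher in mKO, where they summed to 7085 to 9069 against 3959 to 4844 in mWT. Of the 6 epiblast-like markers, 3 rose and 2 fell in fKO, 3 fell in mKO (Otx2, Pou3f1 and Fgf5, with −1.72, −1.53 and −1.05), and the difference between the sexes passed for 5. Of 7 mesoderm markers, among them Pdgfra again, 5 passed in females and 2 in males, and of 6 neural markers 4 and 1. The part of these marker changes in the results for imprinted genes was not tested.

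**Figure D3:**
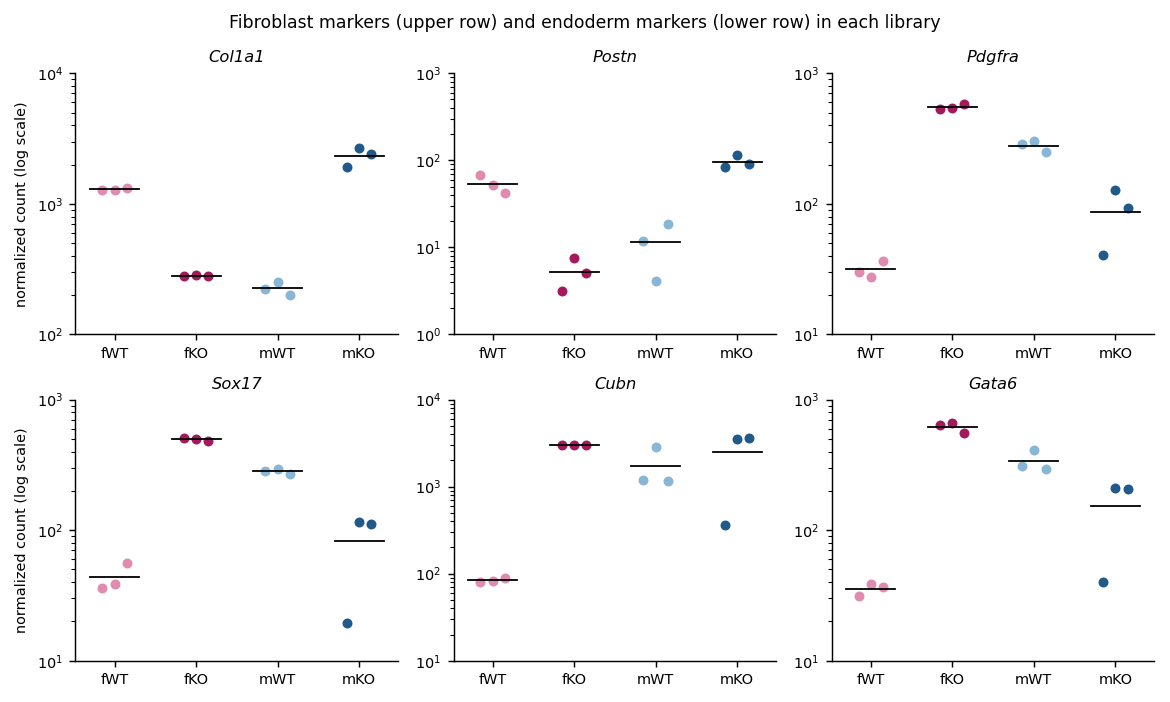
Normalized counts (log axes) of the fibroblast markers Col1a1, Postn and Pdgfra and the endoderm markers Sox17, Cubn and Gata6 in each library of fWT, fKO, mWT and mKO. Points are libraries and black lines the mean of 3. Pdgfra has the opposite pattern to Col1a1 and Postn within each sex, the endoderm markers are higher in fKO than in fWT, and for these mKO library A, the leftmost point, is below the other 2 mKO libraries, with 363 for Cubn.

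A small set of imprinted genes moved the same way in both sexes. Sfmbt2 (chr2:10292137-10516880, + strand), a paternal Polycomb gene needed for trophoblast, counted 1287, 1414 and 1363 in fWT, 3476, 3704 and 3764 in fKO, 1113, 1056 and 1128 in mWT and 1829, 3325 and 3395 in mKO. It rose with 1.43 (standard error 0.0564, limma adjusted p = 6.35e-13) in females and 1.32 (standard error 0.214, limma adjusted p = 0.00804) in males, and the difference between the sexes was −0.11 (standard error 0.245, limma adjusted p = 0.773). The male call of Sfmbt2 was lost without mWT C. Peg12, a paternal gene of the Frat family of Wnt regulators in the Snrpn-Ube3a region, counted 15.1, 11 and 16.7 in fWT, 48.6, 37 and 35.4 in fKO, 5.98, 18.6 and 8.62 in mWT and 39, 29.4 and 42.4 in mKO. Its log2 fold change was 1.44 (standard error 0.266, limma adjusted p = 0.000174) in females and 1.77 (standard error 0.463, limma adjusted p = 0.0477) in males, with no overlap in either sex, and the male call was lost without mWT A, mWT C, mKO B or mKO C and with a pseudocount of 0.1.

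At the Igf2r locus the maternal receptor rose and its neighbour Slc22a3 fell. Igf2r (chr17:12875272-12962530, − strand), the receptor that takes up and clears IGF2, counted 1619.6, 1773 and 1641 in fWT, 2331, 2298 and 2363 in fKO, 2347, 2372 and 2337 in mWT and 2802, 3634 and 3771 in mKO. The log2 fold change of Igf2r was 0.47 (standard error 0.0546, limma adjusted p = 8.41e-07) in females and 0.52 (standard error 0.133, limma adjusted p = 0.0445) in males, where the call was lost without any 1 library other than mKO A. Slc22a3, an organic cation transporter gene imprinted in placenta, counted 17.1, 12.1 and 16.7 in fWT, 1.57, 2.53 and 1.01 in fKO, 16, 11.4 and 34.5 in mWT and 4.06, 0 and 0 in mKO. These are 11 to 24 reads per control library and 0 to 5 per knockout library, so that its log2 fold changes of −2.62 and −3.51 (limma adjusted p = 1.93e-05 and 0.0241) depend on the pseudocount. Slc22a3 has a mean under 10 and is named here because it fell in both sexes. Airn, the paternal RNA that silences this cluster, was at 5.17 to 31.0 in all libraries, and passed in neither sex.

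Mest and Impact, both paternal, fell in both knockouts. Mest (chr6:30673547-30698457, + strand), which encodes a hydrolase of the endoplasmic reticulum, counted 1673, 1702 and 1831 in fWT, 1459, 1383 and 1429 in fKO, 1129, 1339 and 1167 in mWT and 965, 506 and 546 in mKO. Its log2 fold change was −0.28 (standard error 0.0559, limma adjusted p = 0.000327) in females and −0.91 (standard error 0.221, limma adjusted p = 0.0378) in males, where mKO A was again nearest to the controls. Antisense Copg2 shares 904 bases with the exons of Mest (23.0% of them), and whether reads were counted by strand is not given in the sources used here. Impact, an inhibitor of the GCN2 stress kinase pathway, counted 2582, 2562 and 2688 in fWT, 1525, 1435 and 1442 in fKO, 1778, 1858 and 1868 in mWT and 1350.5, 902 and 936 in mKO. It fell with −0.83 (standard error 0.0534, limma adjusted p = 4.55e-10) in females and −0.81 (standard error 0.157, limma adjusted p = 0.0157) in males, and no libraries overlapped. The male calls of Mest and Impact were lost without mWT A, mWT C, mKO B or mKO C, and that of Mest also without mWT B.

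In the Snrpn-Ube3a region of central chromosome 7, genes that share an imprinting centre did not move together. Ndn, which encodes necdin, counted 50.3, 58.2 and 55.6 in fWT, 32.9, 33.7 and 23.2 in fKO, 31.9, 38.3 and 18.7 in mWT and 71.4, 37.5 and 33.1 in mKO. It fell in females with −0.86 (standard error 0.209, limma adjusted p = 0.00205), and its male value was 0.63 (standard error 0.401, limma adjusted p = 0.344). Mkrn3, a ubiquitin ligase of the makorin family, counted 65.4, 65.9 and 57.8 in fWT, 43.9, 44.6 and 44.5 in fKO, 58.8, 78.6 and 63.2 in mWT and 74.7, 71 and 61 in mKO. It fell by 0.50 on the log2 scale in females (limma adjusted p = 0.0205), whereas Peg12 next to it rose in both sexes. Magel2, at 2.01 to 4.45 in fWT, was at 7.07 to 12.5 in fKO and rose there with 1.39 (standard error 0.411, limma adjusted p = 0.0089). Ube3a, a ubiquitin ligase imprinted in neurons, was at 1756 to 2100.3 in every library and passed in neither sex. Snrpn, the gene at the imprinting centre, had at most 1.62 normalized counts in any library, and Snurf, which lies on the same transcript, is listed at 0 in all 4 group means. How reads on exons shared by these 2 genes were counted was not tested.

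Both genes of the Gnas cluster fell in females. Gnas (chr2:174109821-174172245, + strand) encodes the stimulatory G protein alpha subunit. It has several RefSeq start sites, and which transcript its reads come from was not measured. Gnas counted 2737, 2615 and 2733 in fWT and 1567, 1524 and 1530 in fKO. In males it counted 2115, 1627 and 2036 in mWT and 1988, 2160 and 2096 in mKO. Its antisense Nespas counted 565, 591 and 578 in fWT, 342, 385 and 334 in fKO, 413, 477 and 395 in mWT and 466, 273 and 296 in mKO. The log2 fold change in females was −0.81 (standard error 0.0519, limma adjusted p = 4.66e-10) for Gnas and −0.71 (standard error 0.0707, limma adjusted p = 1.47e-07) for Nespas. In males they were 0.12 (standard error 0.128, limma adjusted p = 0.57) and −0.35 (standard error 0.2, limma adjusted p = 0.299), and the male libraries overlapped for both. The difference between the sexes passed for Gnas (0.93, limma adjusted p = 0.00027) and not for Nespas (0.36, adjusted p = 0.279). Exons of the 2 genes share 988 bases on opposite strands, 31.4% of those of Nespas.

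The Peg10-Sgce pair, read outward from a shared promoter region, was lower in fKO. Sgce, which encodes epsilon-sarcoglycan, counted 299.8, 347 and 305 in fWT, 149, 152 and 142 in fKO, 275, 199.5 and 312 in mWT and 129, 251 and 229.6 in mKO, with −1.10 (standard error 0.089, limma adjusted p = 1.05e-08) in females and −0.40 (standard error 0.264, limma adjusted p = 0.365) in males. Peg10, a placental gene derived from a retrotransposon, counted 9037, 9129.6 and 8972 in fKO. Its authors' means were 18995 in fWT and 9046 in fKO (ratio 0.476), and 14148 in mWT and 18346 in mKO (ratio 1.3), with no test. Plagl1, a zinc finger factor that regulates other imprinted genes, counted 189, 201 and 186 in fWT, 97.2, 101 and 121 in fKO, 267, 77.5 and 233 in mWT and 98.2, 97.3 and 102 in mKO. It fell with −0.85 (standard error 0.111, limma adjusted p = 4.05e-06) in females. Its male value of −0.76 (standard error 0.396, limma adjusted p = 0.261) missed the threshold, with mWT B below all mKO libraries and mWT A and C above them. The male value of Plagl1 was −1.32 (limma adjusted p = 0.00988) without mWT B and 0.35 (adjusted p = 0.435) without mWT A and C.

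Of the other named members, H13, which encodes a signal peptide peptidase, counted 413, 434 and 391 in fWT, 658, 600.2 and 646 in fKO, 424, 449.7 and 425 in mWT and 544, 587 and 632 in mKO. It rose with 0.62 (standard error 0.0677, limma adjusted p = 4.57e-07) in females, and 0.44 (standard error 0.118, limma adjusted p = 0.0535) in males missed the threshold although the libraries did not overlap. Zrsr1, a paternal retrogene related to the splicing factor U2AF1, counted 277, 256 and 205 in fWT, 273, 294 and 296 in fKO, 248, 292 and 302 in mWT and 189.9, 185 and 187 in mKO. It fell in males with −0.57 (standard error 0.142, limma adjusted p = 0.0402), a call lost without mWT A, mWT C, mKO B or mKO C, and its female value was 0.24 (standard error 0.0996, limma adjusted p = 0.056). Zrsr1 lies inside the maternal gene Commd1 on the opposite strand, and 203 bases of its exons lie opposite exons of that gene.

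The remaining members changed less or missed the threshold. In fKO, Peg3 (−0.32), Nnat (−0.37), Inpp5f (−0.37), Commd1 (−0.32), Trappc9 (−0.30) and Ppp1r9a (−0.19) were lower by these log2 fold changes. None of these 6 passed in males, where their values lay between −0.42 (Ppp1r9a) and 0.28 (Inpp5f). Exons of Commd1 share 2449 bases (29.2% of them) with B3gnt2 on the same strand, and how reads there were counted was not tested. The difference between the sexes passed for Cd81, Peg3 and Inpp5f, with 0.66, 0.59 and 0.65. The 15 members that did not pass in females ranged from −0.94 (Tfpi2) to 0.27 (Peg13), and the 35 that did not pass in males from −1.54 (Nap1l5) to 1.62 (Osbpl5). Usp29, Zim1, Blcap, Mcts2, Zdbf2, Peg13 and Nap1l5, all read in every library, passed in neither sex. Tfpi2 was at 0 to 7.69 in all libraries, and Kcnk9, at 0 in the 9 libraries outside mWT, was at most 1.44 there.

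The control cells of the sexes also differed. Of 50 members, 22 passed in fWT against mWT, 16 higher and 6 lower in females, against 21.9% of 21868 genes (10.7% and 11.2%) and 33.8% of genes with a mean of at least 10. The libraries of fWT and mWT did not overlap in 29 members, beside 36% of all genes. The median log2 difference of the members was 0.21, and that of all genes −0.17. Dlk1 was higher in fWT with 1.76 (standard error 0.232, limma adjusted p = 0.000369), Igf2 with 1.60 (standard error 0.172, limma adjusted p = 8.98e-05), Peg13 with 1.34 (standard error 0.216, limma adjusted p = 0.00136) and Cdkn1c with 1.27 (standard error 0.105, limma adjusted p = 1.53e-05). Slc38a4, Grb10 and H19 were also higher, with log2 differences of 0.95, 0.85 and 0.75. Dio3, Kcnq1ot1, Trappc9, Ppp1r9a, Blcap and Igf2r were lower in fWT, from −1.28 (Dio3) to −0.49 (Igf2r). Trappc9 counted 436, 404 and 434 in fWT and 802, 439 and 835 in mWT, so its difference rests on mWT A and C. The call of Dio3 (limma adjusted p = 0.0438) was lost without any 1 of the fWT libraries, mWT A or mWT C and with a pseudocount of 0.1 (adjusted p of up to 0.227). In these same control libraries lie the baselines of the knockout comparisons, so the values are given side by side and no correlation between them is drawn. The fKO levels of Cdkn1c, H19 and Dlk1 (318, 2359 and 57 as authors' means, chosen here after their values were seen) stood nearer to those of mWT (232, 2493 and 60.3) than to those of fWT (558, 4188 and 205), while those of Grb10 and Slc38a4 stood nearer to fWT. Without mWT A and C, mWT is a single library. Of the genes given in every library, Dlk1, Kcnq1ot1, Dio3, Sfmbt2, Mest and Ndn then did not pass.

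**Figure D4:**
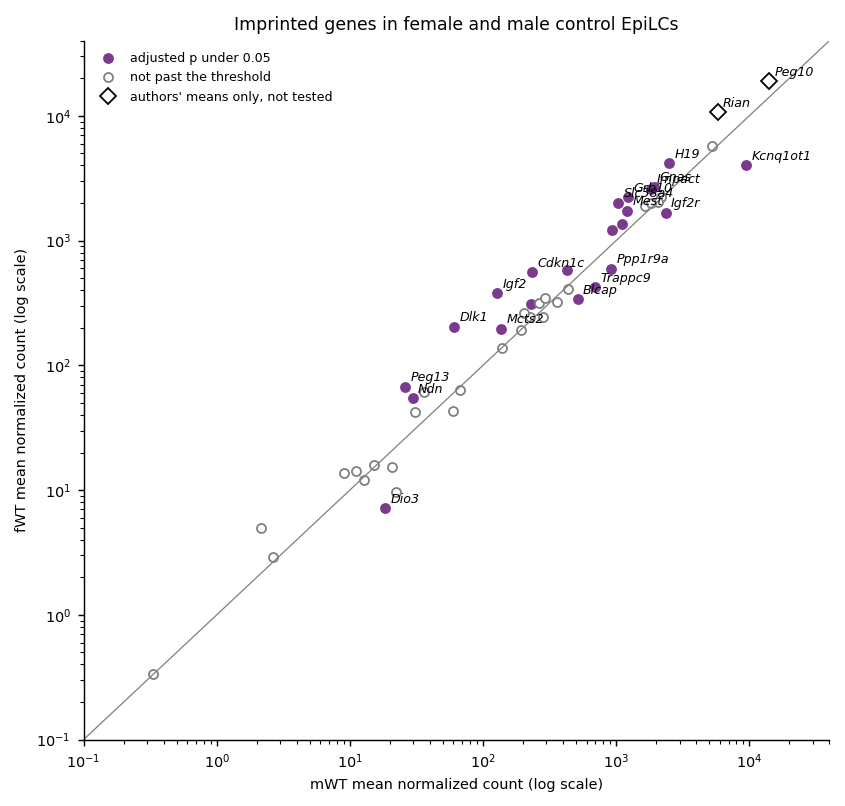
Mean normalized count of each imprinted gene in fWT (vertical) against mWT (horizontal), on log axes, with the line of equal levels. Filled points passed an adjusted p under 0.05 in limma, open circles did not, and diamonds are authors' means that were not tested. Dlk1, Igf2 and Cdkn1c lie above the line (205 against 60.3, 378 against 127 and 558 against 232), and Kcnq1ot1 lies below it.

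Levels of different genes can be compared only per length of exon. Per kilobase of annotated exon, Peg10 ranked first in fWT, fKO and mWT (2851, 1358 and 2124 normalized counts per kb), and H19 ranked first in mKO with 10888. Cdkn1c rose from rank 21 in mWT (120 per kb) to rank 4 in mKO (1025 per kb). Meg3, spread over 18089 bases of annotated exon, ranked 11 in fWT (319 per kb) and 18 in fKO (145 per kb). The ranks are over the listed members with exons in the mm9 annotation used here, which holds neither Kcnq1ot1 nor Peg13.

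Imprinted genes outside the 53 were also read. Of 29 other imprinted genes, many of them placental or close to the clusters above, 28 were listed. In fKO, 5 of 27 rose and 9 fell, and in mKO 1 of 28 passed (Bcl2l1, 0.62 (standard error 0.162, limma adjusted p = 0.047)). These shares of 51.9% and 3.57% stand beside 50% and 7.78% of all genes. Cobl and Ddc, the neighbours of Grb10, rose in fKO with 1.63 (standard error 0.116, limma adjusted p = 1.9e-09) and 1.41 (standard error 0.199, limma adjusted p = 9.94e-06), while Grb10 between them had a female value of 0.00. In the Peg10-Sgce cluster, Asb4, Pon2 and Pon3 fell in fKO by 1.80, 1.09 and 1.23 on the log2 scale, along with Sgce. The median over these genes was 0.04 in females and −0.11 in males, against 0.00 and −0.16 for all genes.

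Genes that regulate imprints or DNA methylation were mostly higher in fKO. Of 22 such genes, 14 rose and 3 fell in fKO, beside 25.4% and 24.6% of all genes. The share called in fKO, 77.3%, stands beside 50% of all genes and 65.8% of those with a mean of at least 10. In mKO 3 of 22 passed (13.6%), each of them higher, beside 7.78% of all genes and 12.3% of those with a mean of at least 10. Zfp57, which protects methylated imprinting control regions, counted 334, 316 and 312 in fWT, 551, 559 and 586 in fKO, 601, 574 and 681 in mWT and 592, 1198 and 1289 in mKO. Its log2 fold change was 0.82 (standard error 0.0674, limma adjusted p = 1.3e-08) in females and 0.65 (standard error 0.258, limma adjusted p = 0.158) in males. Dnmt3l, the cofactor of the de novo methyltransferases that set germline imprints, counted 869, 1043 and 914 in fWT, 4171, 3874 and 4271 in fKO, 520.4, 882 and 464 in mWT and 2323, 3012 and 2819 in mKO. It rose in both sexes, with 2.13 (standard error 0.0663, limma adjusted p = 2.44e-14) and 2.18 (standard error 0.222, limma adjusted p = 0.000853), as did Dppa3 (0.75 and 2.02), which guards maternal methylation in the zygote, and the dioxygenase gene Tet3 (0.57 and 0.79). Dnmt3a rose in fKO with 1.60 (standard error 0.0521, limma adjusted p = 4.53e-14) and had −0.08 (standard error 0.181, limma adjusted p = 0.779) in males. Dnmt1, the maintenance methyltransferase, and its partner Uhrf1 passed in neither sex. Tet2, Ezh2 and Ehmt2 fell in fKO by 0.55, 0.37 and 0.40 on the log2 scale.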

How the data were processed

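RNA-Seq libraries of EpiLCs from 3 ESC lines for each of 4 groups were depleted of ribosomal RNA and made by ligation to first-strand cDNA. The submitters' processing notes name TopHat2 (2.1.0), Bowtie2 (2.2.6.0), Cuffdiff and DESeq, and mm9. Whether reads were counted by strand, and with which annotation, is not given in the sources used here. The authors deposited a table per sex with the signal of each group, a mean normalized count. Their fold changes and p-values were not used.

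The members and lists were chosen with earlier results of these data known. Whole reads per library were solved from the means wherever a mean did not exceed 10000, with exactly 1 solution in every case. They covered 86.0 to 91.4% of the normalized reads of a group, and 22808 genes were recovered in all 12 libraries. PCR copies may be among the reads, so depth covers counting error only. The solver and fits were tested on simulated data. The size factors were 0.988 to 0.999 times those of a single normalization of all 12 libraries, so the sexes were compared directly.

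Limma (3.58.1, R 4.3.3) with an intensity trend was fitted to log2(normalized count + 1) of every gene with a read, with Benjamini-Hochberg adjustment over all of them and 0.05 as the threshold. A fold change on this scale understates that of low genes. Interaction terms used all 12 libraries. Members past the threshold in either sex with a mean of at least 10 were ordered by the larger absolute log2 fold change, and the first 25 are given in every library. Coordinates are from GENCODE M1 on mm9, and promoters from RefSeq on GRCm38.p6. Alternatives were a pseudocount of 0.1, a minimum mean of 10, voom, library totals, 1 fit over all libraries and leaving out libraries. Other software was numba (0.67.0), numpy (2.4.6), matplotlib (3.10.9), pandas (2.3.3) and scipy (1.17.1) in Python 3.11.15. H19, Peg10 and Rian exceed the limit in some groups and have no test there.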

Additional observations from a re-analysis of the deposited data

Results flagged for a closer look

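For 13 of the imprinted genes given in every library, the change on loss of KDM5C differed between males and females by the interaction term of sex and genotype in limma. Values are the log2 change in males minus that in females. The difference was positive for Igf2 (6.32), Cdkn1c (3.86), Dlk1 (3.07), Osbpl5 (2.26), Ascl2 (1.82), Slc38a4 (1.80), Grb10 (1.67), Ndn (1.5) and Gnas (0.93). It was negative for Dio3 (−2.62), Kcnq1ot1 (−1.59), Zrsr1 (−0.81) and Phlda2 (−0.74). The adjusted p ranged from 2.44e-07 (Igf2) to 0.0322 (Ndn), and the difference in Ndn was not past the threshold without any 1 of fWT A, fWT B, fWT C, fKO C or mWT C. These genes were picked for a call in at least 1 sex and the largest fold changes, so 13 is a selected count. Among all members tested, 16 of 49 passed. The same test passed for 21.2% of all genes and for 33.8% of genes with a mean of at least 10, a level that all 13 have.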

How the results depend on the processing

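No call on a gene given in every library turned direction under any alternative run, but some values that missed the threshold did. In males, Plagl1 went from −0.76 to 0.35 and Mkrn3 from 0.05 to −0.19 without mWT A and C, and in females Grb10 went from 0.00 to −0.07 with library totals. In females, 34 members were called, 31 to 33 when a library was left out, and 15 (6 higher, 9 lower) in 1 fit over all 12 libraries, where the male spread is shared and Igf2, Slc38a4, Kcnq1ot1, Ascl2, Mest, Ndn, Plagl1, Osbpl5 and Mkrn3 were lost. Of these, Ascl2, Osbpl5 and Mkrn3 were also lost without some 1 female library. In males, 15 members were called, 3 to 23 when a library was left out, 28 without mWT B and mKO A, and 0 without mWT A and C in limma, where mWT is a single library assumed to vary like the others. Differences between the sexes passed for 16 members, 13 to 23 when a library was left out and 29 without mWT B and mKO A. For fWT against mWT, 22 members passed, 16 to 27 when a library was left out. The cause was not tested in any of these. The share of all genes called also moves from run to run and is not given here. These counts are therefore not read as results about the members. In males, voom lost Ascl2, Igf2r and Zrsr1, and library totals lost Ascl2 and Igf2r. Kcnq1ot1 and Ndn lost their difference between the sexes without mWT A and C, and Ndn also without any 1 of the fWT libraries, fKO C or mWT C (limma adjusted p of up to 0.0841). Library totals moved the median of all genes by less than 0.1 on the log2 scale. No paired analysis was possible because the recovered libraries carry no replicate numbers. Few reads limit the results for Slc22a3, Magel2, Tfpi2, Snrpn and Kcnk9, with means under 10, and why they have few was not tested.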
